A study of Mus musculus with 6 samples.

Results

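The sarcomere and Z-disc genes described here are 34 listed genes whose products build the contractile unit of striated muscle or sit at its edges. Membership was set by a list of gene symbols and not by a measured value. A gene was measured through the probe sets annotated to it alone, and 33 of the 34 had at least 1, for 61 probe sets in all. Of these genes 22 had a single probe set, and Pdlim5 had the most, 7. The whole table held 34945 such probe sets for 18193 genes. Xirp2 was not analysed here.

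RNA was hybridised to Affymetrix Mouse 430 2.0 arrays in 3 groups of 2 arrays. The first was the atrioventricular valve dissected from wild-type FVB/N mouse embryos at embryonic day 17.5 (E17.5), and the next was the atrioventricular cushion, the tissue from which those valves form, dissected at embryonic day 12.5 (E12.5) from embryos of the same strain and genotype. The last was MC3T3-E1 (subclone4), a mouse pre-osteoblast line that is 1 clone, grown in culture. No group received a treatment, every array carried pooled RNA, and the arrays of a group are labelled biological duplicates. The limma p-values below set a difference between groups against the spread between pools of the same group, estimated over all 3 groups. The size of the pools is not stated.

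In a sarcomere, thick filaments of myosin pull on thin filaments of actin. Tropomyosin and the troponin complex on the thin filament make that pull depend on calcium. The thin filaments are anchored at the Z-disc, the thick filaments are held in register at the M-band, and titin spans from one to the other. Heart muscle surrounds the atrioventricular cushions, whereas cushion mesenchyme and mature leaflets are not striated muscle.

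The promoters of 6 of the genes are shown as examples, each with a motif that it holds, so they do not stand for all genes with like values. Actc1 and Myl7 were listed at the lowest possible ratio in MC3T3 and differed by at most 0.20 (log2) between the stages. Nebl, Ttn and Myoz2 were called higher at E17.5, and Cavin4 was the gene called lower in E12.5 cushion than in MC3T3. Each line gives the 250 bases before a RefSeq transcription start (build GRCm38.p6), 5′ to 3′ on the gene's strand. The capitals mark a CArG box, the site named for serum response factor, in Actc1, Myl7 and Nebl, a MEF2 site, named for the myocyte enhancer factor family, in Ttn and Myoz2, and TATAAA in Cavin4. Nebl has 4 starts in the RefSeq table, and the one shown is the only 1 of its 4 windows with the box.
Actc1: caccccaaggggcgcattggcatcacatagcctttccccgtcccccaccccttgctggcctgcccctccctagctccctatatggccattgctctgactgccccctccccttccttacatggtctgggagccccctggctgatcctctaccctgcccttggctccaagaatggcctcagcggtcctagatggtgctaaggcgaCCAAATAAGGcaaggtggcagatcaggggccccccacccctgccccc
Myl7: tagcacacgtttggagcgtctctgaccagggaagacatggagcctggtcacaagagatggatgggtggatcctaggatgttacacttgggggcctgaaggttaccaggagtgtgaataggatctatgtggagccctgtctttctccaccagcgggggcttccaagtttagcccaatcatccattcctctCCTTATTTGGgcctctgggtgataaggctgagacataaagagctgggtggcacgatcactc
Nebl: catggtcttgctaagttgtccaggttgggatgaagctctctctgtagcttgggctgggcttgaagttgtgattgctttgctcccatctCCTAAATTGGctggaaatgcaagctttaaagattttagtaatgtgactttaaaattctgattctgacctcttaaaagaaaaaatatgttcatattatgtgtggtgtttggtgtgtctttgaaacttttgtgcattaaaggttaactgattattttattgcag
Ttn: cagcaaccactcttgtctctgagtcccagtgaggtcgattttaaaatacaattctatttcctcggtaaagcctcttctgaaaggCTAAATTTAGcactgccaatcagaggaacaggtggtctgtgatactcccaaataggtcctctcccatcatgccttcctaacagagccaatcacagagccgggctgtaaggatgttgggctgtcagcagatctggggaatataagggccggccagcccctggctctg
Myoz2: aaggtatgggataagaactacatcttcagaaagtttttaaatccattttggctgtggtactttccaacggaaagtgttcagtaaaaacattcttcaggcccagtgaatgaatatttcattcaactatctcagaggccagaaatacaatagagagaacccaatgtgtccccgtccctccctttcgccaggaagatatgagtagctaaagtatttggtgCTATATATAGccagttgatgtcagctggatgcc
Cavin4: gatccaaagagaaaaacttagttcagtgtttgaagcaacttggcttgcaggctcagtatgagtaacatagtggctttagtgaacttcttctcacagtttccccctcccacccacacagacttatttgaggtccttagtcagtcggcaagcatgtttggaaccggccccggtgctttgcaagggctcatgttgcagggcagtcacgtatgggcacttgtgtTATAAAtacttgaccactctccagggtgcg
These stretches lie at chr2:114052876-114053125 on the minus strand for Actc1, chr11:5898783-5899032 on the minus strand for Myl7, chr2:17462857-17463106 on the minus strand for Nebl, chr2:76982548-76982797 on the minus strand for Ttn, chr3:123034988-123035237 on the minus strand for Myoz2 and chr4:48663264-48663513 on the plus strand for Cavin4. The capitals begin 47 bases before the start in Actc1, 61 in Myl7, 162 in Nebl, 166 in Ttn, 33 in Myoz2 and 30 in Cavin4.

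RefSeq promoter windows were matched for 29 of the 33 measured genes, with 41 windows of 300 bases each (250 before and 50 after a start). Both strands were searched for the CArG box, the MEF2 site, CATTCC (the M-CAT element), TATAAA and GATAA. The CArG box was in 9 of the 41 windows (22.0%), against 1.63% of all 32851 windows, and these belonged to Actc1, Fhl2, Ldb3, Myl3, Myl7, Myom1 and Nebl, with 2 overlapping Ldb3 windows that share a box. A MEF2 site was in 4 windows (9.76%, against 3.19% of all), those of Fhl2, Mybpc3, Myoz2 and Ttn. The shares were 29.3% against 14.7% for CATTCC, 17.1% against 13.6% for TATAAA, which the Fhl2 MEF2 site contains, and 34.1% against 25.4% for GATAA. Of the 6 genes called higher at E17.5 that had a window, 1 held a CArG box and 2 a MEF2 site, against 6 and 2 of the 23 others. Lmod2 and Ankrd1, both called, held neither site. Nor did Csrp3, Myh7, Myl2 and Tnni1, whose values were like those of Actc1 and Myl7. A match describes the letters in these windows and nothing more.

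The deposited value of a probe set is its ratio to the median of that probe set over the 4 valve arrays, so on the log2 scale used below 0 is the middle of the E17.5 and E12.5 arrays. Ratios keep no level, so no gene's abundance can be set against another's. Probe sets of a gene were averaged on the log2 scale. The lowest ratio in the table is 0.01 (log2 -6.64), and a fold against that floor is a lower bound. Differences are given with the standard error from limma, and a gene was called when its Benjamini-Hochberg adjusted p over 18193 genes was below 0.05 and its difference at least 2-fold. For genes at the floor on both MC3T3 arrays, that pair adds a spread of 0 to the estimate. Their standard errors and p-values, also between the stages, can therefore be too small. With 2 arrays in each group, no exact permutation p can fall below 0.333.

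Replicate arrays of these genes lay at a median absolute log2 difference of 0.0919 in E17.5 valve, 0.132 in E12.5 cushion and 0.0506 in MC3T3. Over all genes these medians were 0.0909, 0.11 and 0.0792. None of these genes had replicates 2-fold apart, which was rare over all 18193 genes too (99, 64 and 3 genes). Hepatocyte markers set the replicate arrays of both valve stages apart, and erythroid markers those of E12.5 cushion. The median of 8 hepatocyte markers was 2.54 and 0.16 on E17.5 replicates 1 and 2, against -0.18 and -1.14 on E12.5 replicates 1 and 2. That of 7 erythroid markers was -0.45 and -1.49 on E17.5 replicates 1 and 2, against 1.38 and 0.34 on E12.5 replicates 1 and 2. Both E17.5 medians are the values of 1 gene, Klf1. Gene by gene, the E17.5 replicates differed by a median of -0.03, with 3 erythroid markers higher and 4 lower on replicate 1. In E12.5 cushion all 7 were higher on replicate 1, by a median of 0.86. Stage calls that fall under 2-fold between the replicate 2 arrays alone are therefore marked. Each stage is then 1 array and the spread would come from the MC3T3 pair only, so those differences are given as values with no test. The median stage difference over all genes was -0.14. Against MC3T3, 7 of 8 endocardial markers were called higher in E17.5 valve and 7 in E12.5 cushion. That is 87.5% in each, against 9.78% and 10.2% of all genes. Of 5 osteoblast markers, 4 were called lower in each valve stage (80%, against 7.94% and 10.8% of all genes).

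The stage differences of the sarcomere genes ran from -0.77 for Tnnt1 to 3.37 for Cavin4. Of the 33 genes, 8 were called higher in E17.5 valve than in E12.5 cushion (24.2%, against 4.67% of all genes) and 0 lower, with 6.51% of all genes called either way. The 8 were Cavin4, Myom2, Nexn, Nebl, Ttn, Ankrd1, Lmod2 and Myoz2, and 6 of the 8 were still 2-fold apart between the replicate 2 arrays alone. Without the fold threshold 19 passed as higher (57.6%, against 19.3% of all genes) and 1, Tnnt1, as lower (3.03%, against 34.2%). The median difference of the 33 was 0.39 and 31 were above 0. Both E17.5 arrays lay above both E12.5 arrays for 26 genes (78.8%, against 25.9% of all genes), below them for 2 (6.06%, against 52.8%) and overlapped for 5. In dissected tissue, fewer cells of a type and less RNA per cell cannot be told apart.

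**Figure D1:**
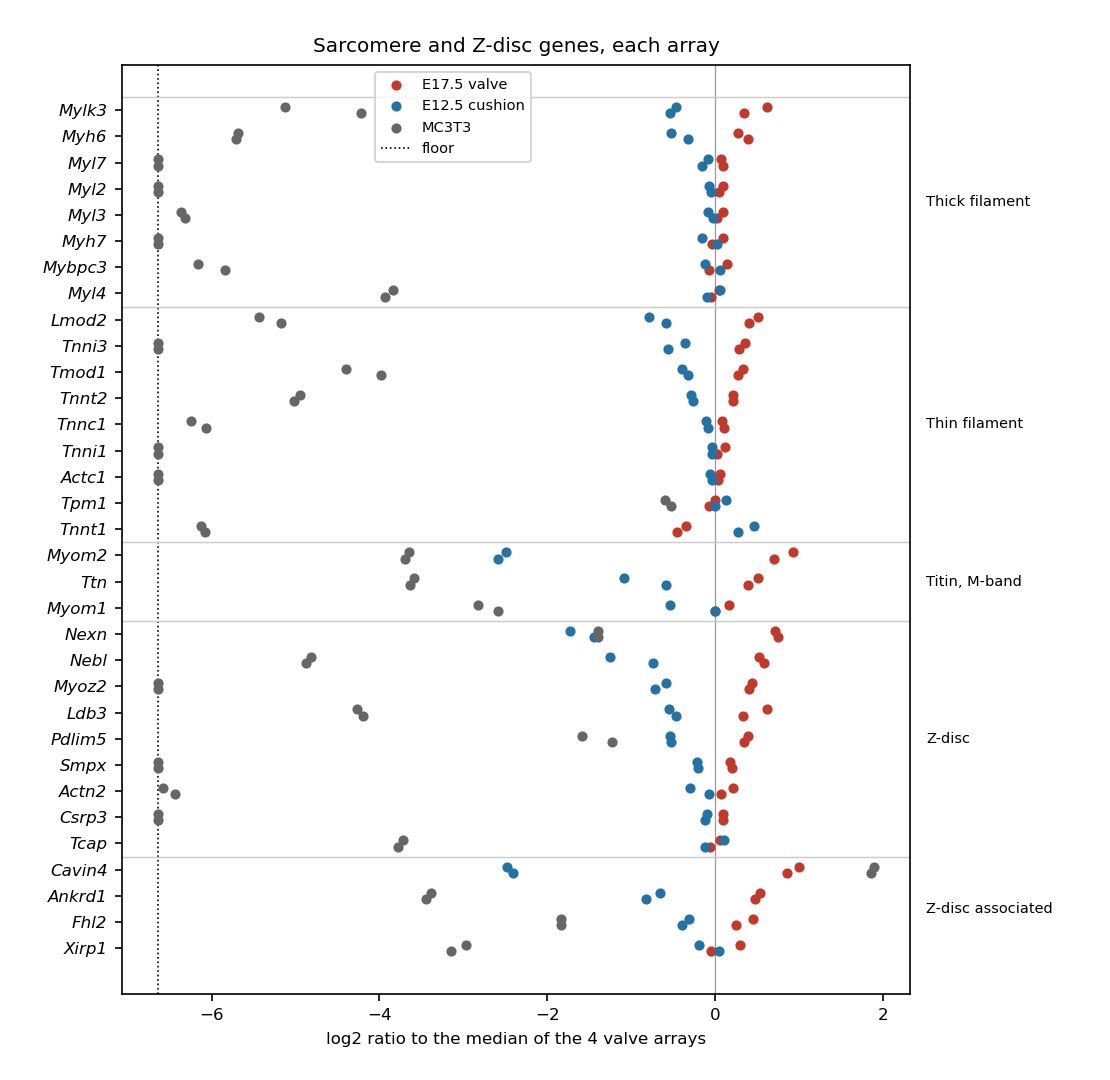
Log2 ratio to the valve median of each of the 33 genes (rows, grouped by role) on each of the 6 arrays, E17.5 valve, then E12.5 cushion, then MC3T3. The valve values lie around 0 by construction, the MC3T3 values reach down to -6.64, and Cavin4, at 1.90 and 1.86, is the gene whose MC3T3 points lie above both valve stages.

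None of the 8 thick filament genes was called between the stages. With 6.51% of all genes called either way, 0 of 8 lies near that share. Their median difference was 0.12, against -0.14 over all genes. Myh7, the beta-cardiac myosin heavy chain, was 0.09 ± 0.09 higher in E17.5 valve (adjusted p = 0.4), and Mybpc3, the cardiac myosin-binding protein C, 0.07 ± 0.13 higher (adjusted p = 0.683), with overlapping arrays in both. The light chains of ventricular type, Myl2 and Myl3, differed by 0.14 and 0.11, and those of atrial type, Myl7 and Myl4, by 0.20 and 0.01. Of these light chains Myl4 had overlapping arrays. Myh6, the alpha-cardiac myosin heavy chain, passed the p threshold but not the fold threshold, with a difference of 0.75 ± 0.09 (adjusted p = 0.000488). Mylk3, the cardiac myosin light chain kinase, stood at 0.62 and 0.35 in E17.5 valve, against -0.47 and -0.54 in E12.5 cushion. That difference of 0.99 ± 0.25 (1.98-fold, adjusted p = 0.0127) lies just under the fold threshold. The spread behind its standard error and p-value came mostly from the MC3T3 arrays, at -5.12 and -4.22. Their standard deviation was 0.634, against 0.188 in E17.5 valve and 0.0523 in E12.5 cushion.

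Among the 9 thin filament genes only Lmod2, whose product lengthens thin filaments at their pointed ends, was called (11.1%, against 6.51% of all genes). Lmod2 stood at 0.51 and 0.41 in E17.5 valve, at -0.79 and -0.58 in E12.5 cushion and at -5.43 and -5.17 in MC3T3. The groups did not overlap, and E17.5 valve was 2.22-fold above E12.5 cushion (1.15 ± 0.11, adjusted p = 0.000193). Between the replicate 2 arrays alone its difference was 1.00 after rounding and just under 2-fold. Tmod1, which caps the pointed end, differed by 0.66 ± 0.13 and Tnnt2, cardiac troponin T, by 0.48 ± 0.07, both under 2-fold with adjusted p of 0.0043 and 0.00137. The cardiac actin gene Actc1, the tropomyosin gene Tpm1 and the calcium-binding subunit gene Tnnc1 differed by 0.10, -0.10 and 0.19, none past the p threshold.

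The troponin subunits come in cardiac and slow skeletal forms, each from its own gene. Tnni3, cardiac troponin I, stood at 0.36 and 0.29 in E17.5 valve, against -0.36 and -0.56 in E12.5 cushion. Tnni1, the slow skeletal form that the developing heart also uses, stood at 0.12 and 0.03 in E17.5 valve, against -0.03 and -0.04 in E12.5 cushion. The difference was 0.79 ± 0.09 for Tnni3 (adjusted p = 0.000362) and 0.11 ± 0.08 for Tnni1 (adjusted p = 0.253). Tnnt1, slow skeletal troponin T, was the gene with the lowest stage difference of the 33. It stood at -0.34 and -0.45 in E17.5 valve, against 0.46 and 0.28 in E12.5 cushion, a difference of -0.77 ± 0.09 (1.70-fold lower, adjusted p = 0.000429). As a log2 ratio of one gene to the other, Tnnt2 over Tnnt1 was 0.55 and 0.67 in E17.5 valve, against -0.74 and -0.54 in E12.5 cushion.

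That shift of 1.25 was the largest of 5 such pairs, ahead of Tnni3 over Tnni1 (0.68) and Myh6 over Myh7 (0.66). Each of these 3 had arrays that did not overlap and the smallest exact permutation p the design allows (two-sided 0.333, adjusted over 5 pairs 0.555). Myl2 over Myl7 and Myl3 over Myl4, the ventricular over the atrial light chains, shifted by -0.06 and 0.09 (exact p = 0.667 and 1). Myh6 and Myh7 lie next to each other on chromosome 14, as do Tnnt1 and Tnni3 on chromosome 7, where the neighbours differed in opposite directions. A pair of probe sets that name both Myh6 and Myh7 were left out of both genes, and their stage differences were 0.35 and 0.14.

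**Figure D2:**
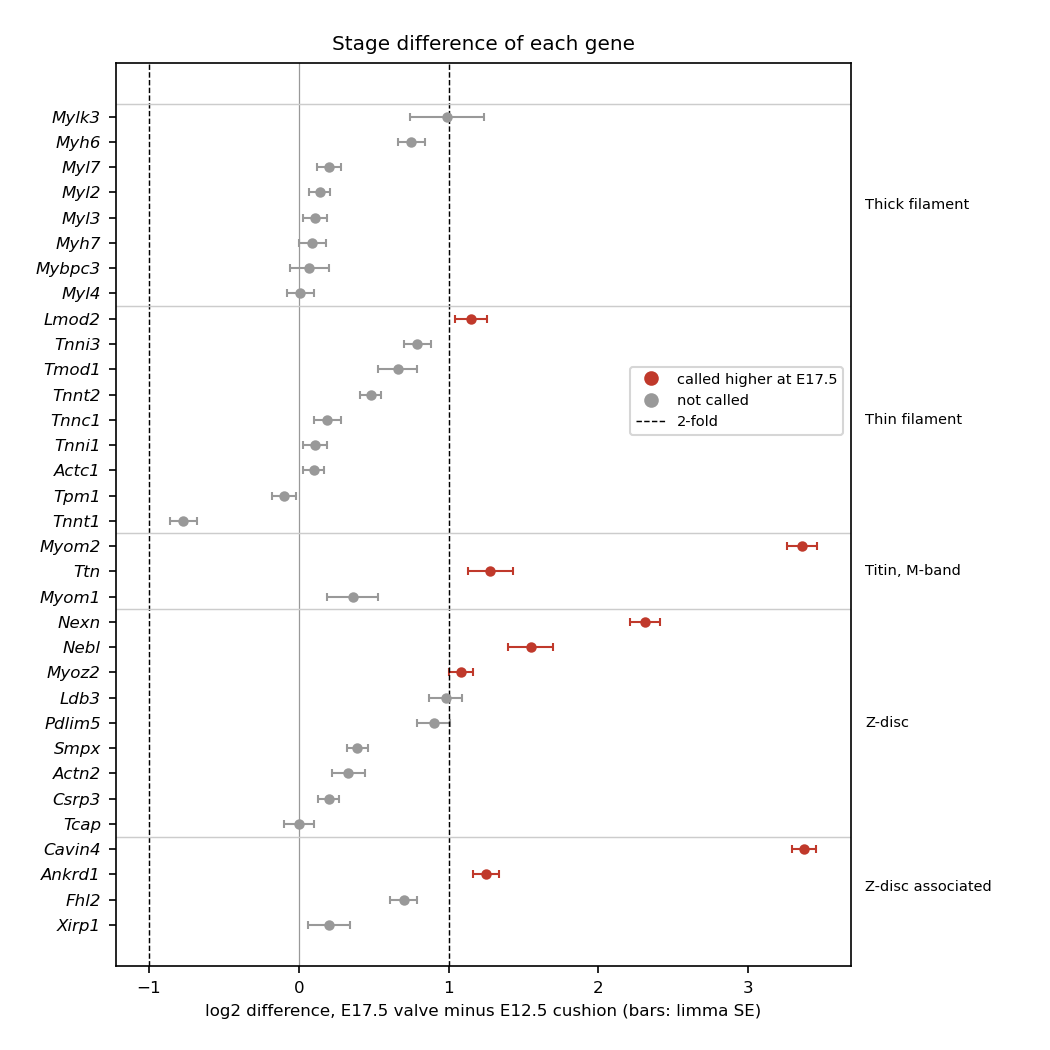
Log2 difference between E17.5 valve and E12.5 cushion for each gene, grouped by role, with bars for the limma standard error and dashed lines at 2-fold. The 8 genes called higher at E17.5 (red) run from Myoz2 at 1.08 to Cavin4 at 3.37.

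Of the 3 titin and M-band genes 2 were called (66.7%, against 6.51% of all genes). Ttn, the giant elastic protein of the sarcomere, stood at 0.51 and 0.39 in E17.5 valve, at -1.08 and -0.58 in E12.5 cushion and at -3.59 and -3.64 in MC3T3. E17.5 valve was 2.43-fold above E12.5 cushion (1.28 ± 0.15, adjusted p = 0.000401), and between the replicate 2 arrays alone the difference was 0.97, under 2-fold. Myom2, the M-protein that crosslinks thick filaments, stood at 0.93 and 0.70 in E17.5 valve, at -2.49 and -2.59 in E12.5 cushion and at -3.65 and -3.70 in MC3T3. The stages were 10.2-fold apart (3.36 ± 0.10, adjusted p = 1.89e-06). Its close relative Myom1, myomesin 1, differed by 0.36 ± 0.17 (adjusted p = 0.117), with -0.54 and 0.00 on the E12.5 arrays. It was 0.09 without E12.5 replicate 1 and 0.63 without E12.5 replicate 2 (adjusted p = 0.614 and 0.00789). The difference between Myom1 and Myom2 was not tested.

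Of the 9 Z-disc genes 3 were called (33.3%, against 6.51% of all genes), at a median stage difference of 0.90. Nexn, the F-actin binding protein nexilin, stood at 0.71 and 0.75 in E17.5 valve, at -1.73 and -1.44 in E12.5 cushion and at -1.40 on both MC3T3 arrays. E17.5 valve was 4.96-fold above E12.5 cushion (2.31 ± 0.10, adjusted p = 9.28e-06). E12.5 cushion and MC3T3 differed by -0.18 ± 0.10 for this gene, which did not pass the test (adjusted p = 0.177).

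Nebl, nebulette, which binds actin near the cardiac Z-disc, stood at 0.52 and 0.58 in E17.5 valve, at -1.25 and -0.74 in E12.5 cushion and at -4.82 and -4.88 in MC3T3. The 3 groups were stepped with no overlap, and the stages were 2.92-fold apart (1.55 ± 0.15, adjusted p = 0.000183). Myoz2, a calcineurin-binding protein of the Z-disc, stood at 0.44 and 0.41 in E17.5 valve, at -0.58 and -0.72 in E12.5 cushion and at the floor on both MC3T3 arrays. The stage difference was 1.08 ± 0.08 (2.11-fold, adjusted p = 6.64e-05), and with 0.1 added to the ratios it was 0.97 and under 2-fold.

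Below the fold threshold stood Ldb3, a PDZ and LIM domain protein of the Z-disc, at 0.98 ± 0.11 (1.98-fold, adjusted p = 0.000297), and its relative Pdlim5, at 0.90 ± 0.11 (adjusted p = 0.000567). When every array was centred to a median of 0, Ldb3 (1.10), Pdlim5 (1.01) and Mylk3 (1.10) were called too. Smpx, Actn2 (alpha-actinin 2, the crosslinker of the Z-disc) and Csrp3 (muscle LIM protein) differed by 0.39, 0.33 and 0.20, under 2-fold with adjusted p of 0.00299, 0.0349 and 0.0461. Tcap, the titin cap protein, differed by 0.00 ± 0.10 with overlapping arrays (adjusted p = 0.986).

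Of the 4 genes of Z-disc associated and signalling proteins, 2 were called (50%, against 6.51% of all genes). Cavin4, a caveola protein of muscle cells, stood at 1.00 and 0.86 in E17.5 valve, at -2.48 and -2.41 in E12.5 cushion and at 1.90 and 1.86 in MC3T3. E17.5 valve was 10.3-fold above E12.5 cushion (3.37 ± 0.08, adjusted p = 1.89e-06). It was the only one of the 33 whose MC3T3 arrays lay above those of both valve stages. Ankrd1, the cardiac ankyrin repeat protein, stood at 0.54 and 0.48 in E17.5 valve, at -0.66 and -0.82 in E12.5 cushion and at -3.38 and -3.45 in MC3T3, with the stages 2.38-fold apart (1.25 ± 0.09, adjusted p = 4.77e-05). Fhl2, a LIM-only protein, differed by 0.70 ± 0.09 (adjusted p = 0.000592, 1.62-fold), and Xirp1, an actin-binding repeat protein, by 0.20 ± 0.14 with overlapping arrays.

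Probe sets of a gene did not always move together. For Myom2, 3 of 4 probe sets gave stage differences of 4.31 to 4.61, while 1438372_at gave -0.06, so the gene mean of 3.36 lies below most of its probe sets. For Ttn, 5 of 6 gave 1.21 to 1.84 and 1446450_at gave 0.31. For Pdlim5, 1421413_a_at and 1429783_at gave 1.94 and 1.50 and were called, and the other 5 gave 0.31 to 0.88 and were not. With every probe set as its own item, 20 of 61 were called higher at E17.5 and 0 lower, against 8.80% of all probe sets called either way.

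**Figure D3:**
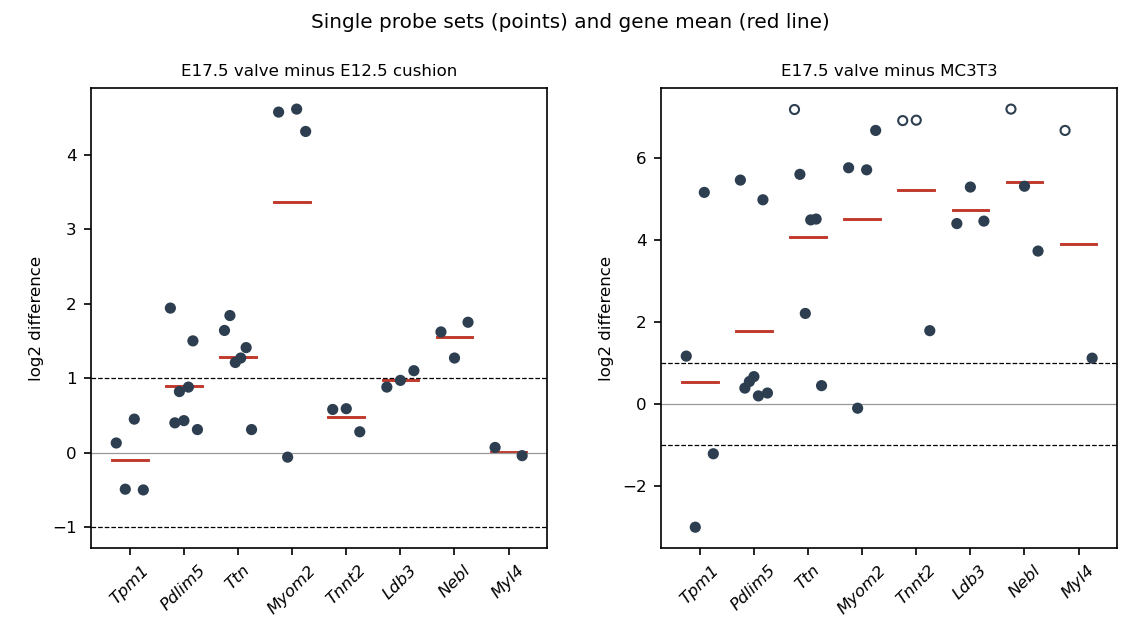
Log2 differences of single probe sets (points) and the gene mean (red line) for 8 of the genes measured by several, between E17.5 valve and E12.5 cushion (left) and MC3T3 (right), with dashed lines at 2-fold and open circles where MC3T3 was at the floor, so that the value is a lower bound. The 4 Tpm1 probe sets run from -3.01 to 5.15 between E17.5 valve and MC3T3, and the 7 of Pdlim5 from 0.19 to 5.45.

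Against MC3T3 nearly all of these genes were higher in the valve. In E17.5 valve 31 of 33 were called higher (93.9%, against 9.78% of all genes) and 0 lower (against 7.94%), with 17.7% of all genes called either way. The median difference was 5.40, against -0.15 over all genes, and both E17.5 arrays lay above both MC3T3 arrays for 32 genes (97.0%, against 28.1% of all genes) and below them for 1, Cavin4 (3.03%, against 55.9%). The 3 comparisons share arrays and are not independent of each other. In MC3T3, 9 genes were at the floor on both arrays in every probe set, which is 27.3% of the 33 and 0.115% of all genes. Over genes with some probe set at the floor on some MC3T3 array, the count was 15 (45.5%, against 0.495%). The median takes floor values as they stand. With 0.1 added to the ratios it was 3.28, and the count of called genes was 31.

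The 9 floor genes were Actc1, Csrp3, Myh7, Myl2, Myl7, Myoz2, Smpx, Tnni1 and Tnni3, and between them they encode parts of the thick filament, the thin filament and the Z-disc. Actc1 stood at 0.06 and 0.04 in E17.5 valve, at -0.06 and -0.04 in E12.5 cushion and at -6.64 on both MC3T3 arrays, so E17.5 valve was at least 104-fold and E12.5 cushion at least 96.7-fold above MC3T3. Myl7 stood at 0.07 and 0.10 in E17.5 valve, at -0.08 and -0.16 in E12.5 cushion and at -6.64 on both MC3T3 arrays. For Myl7 these give at least 106-fold in E17.5 valve and at least 92.3-fold in E12.5 cushion. The bounds of the other 7 in E17.5 valve ran from at least 102-fold for Myh7 to at least 134-fold for Myoz2. Since the floor is relative to the valve median, these bounds carry the stage difference and no other rank.

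The floor does not fix the folds of genes that lie above it in MC3T3, though some lay near it. In MC3T3 Actn2 stood at -6.58 and -6.44, Tnnc1 at -6.24 and -6.07 and Mybpc3 at -6.16 and -5.84. Actn2 was 101-fold, Tnnc1 76.0-fold and Mybpc3 65.7-fold above MC3T3 in E17.5 valve, while Xirp1 was 9.11-fold, Myom1 6.95-fold, Fhl2 4.55-fold, Nexn 4.38-fold and Pdlim5 3.43-fold above it. Myl4, at 14.8-fold, is a lower bound, as 1 of its 2 probe sets reached the floor. That probe set, 1422580_at, gave at least 6.66, while 1457126_at gave 1.11. The folds of Myh6, Myl3, Tnnt2, Ttn and Nebl against MC3T3 are lower bounds too, as some of their probe sets reached the floor. The 2 genes that were not called were Tpm1 and Cavin4. Tpm1 was 0.52 ± 0.08 higher in E17.5 valve (1.43-fold, adjusted p = 0.000999), and Cavin4 was -0.96 ± 0.08 (1.94-fold lower, adjusted p = 3.11e-05). Without the fold threshold Cavin4 passed as lower in E17.5 valve, as did 38.8% of all genes. Without E17.5 replicate 1 Cavin4 stood at -1.03 and was called lower.

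The Tpm1 mean covers opposite values. Its gene makes many isoforms, some of striated muscle and some of other cells. In E17.5 valve against MC3T3, 1447713_at gave 5.15 and 1423049_a_at 1.16, and both were called higher, while 1456623_at gave -1.22 and 1423721_at gave -3.01, and both were called lower. Pdlim5 was split in a like way, with 1421413_a_at at 5.45 and 1429783_at at 4.97 and the other 5 probe sets at 0.19 to 0.66, none called. Which isoforms these probe sets detect was not examined. With every probe set as its own item, 51 of 61 passed as higher in E17.5 valve and 2 as lower, against 18.5% of all probe sets called either way. In E12.5 cushion against MC3T3 49 were called higher and 2 lower, against 23.6% of all.

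The E12.5 cushion already stood above MC3T3 for most of these genes. Of the 33, 29 were called higher (87.9%, against 10.2% of all genes) and 1 lower (3.03%, against 10.8%), with 21.1% of all genes called either way. The median difference was 4.61, against 0.01 over all genes, and both E12.5 arrays lay above both MC3T3 arrays for 31 genes (93.9%, against 40.4% of all genes) and below them for 2, Cavin4 and Nexn (6.06%, against 38.1%). Cavin4 was the gene called lower, 20.0-fold below MC3T3 (-4.33 ± 0.08, adjusted p = 1.12e-08), and with no fold threshold still the 1 gene lower, against 28.3% of all genes. Nexn (-0.18), Tpm1 (0.62) and Pdlim5 (0.88) were not called. Myom2 was 2.21-fold above MC3T3 (1.14 ± 0.10, adjusted p = 2.29e-05), a call lost at 0.52 with probe sets ending in _x_at or _s_at left out and at 0.39 with 0.1 added to the ratios. The 4 Z-disc associated genes, none of them at the floor, had a median against MC3T3 of 2.69 in E17.5 valve and 2.08 in E12.5 cushion.

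Of 48 other sarcomere genes on a fixed list, 44 were measured. Between the stages 9 were called higher in E17.5 valve and 0 lower, at a median of 0.18. That is 20.5%, against 6.51% of all genes called either way. The largest were Cmya5 (2.38), Lmod3, a relative of Lmod2 (1.91), Mybphl (1.45) and Ankrd23 (1.29), and 8 of the 9 were still 2-fold apart between the replicate 2 arrays alone. Against MC3T3, 21 of the 44 were called higher in E17.5 valve and 0 lower (47.7%, against 17.7% of all genes called either way). In E12.5 cushion 19 were called higher and 3 lower (50%, against 21.1%). The 3 lower were Lmod1 (-1.23), Sorbs2 (-1.21) and Palld (-1.16). Of 20 smooth muscle and non-muscle relatives, 0 were called higher between the stages and 1 lower, Cnn1, smooth muscle calponin (-1.19). That is 5%, which lies near the 6.51% of all genes called either way. Against MC3T3, 2 of those 20 were called higher and 5 lower in E17.5 valve (35%, against 17.7% of all genes). In E12.5 cushion 2 were called higher and 4 lower (30%, against 21.1% of all genes).

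Of 16 skeletal muscle genes 1 was called higher in E17.5 valve than in E12.5 cushion, Myh8, the perinatal myosin heavy chain (1.16). Called lower were 2, Acta1, skeletal actin (-1.32), and Myog, myogenin (-1.22). Together these are 18.8% of the 16, against 6.51% of all genes called either way. Between the replicate 2 arrays alone Myog differed by -0.72, under 2-fold, with 1.48 and 0.21 on the E12.5 arrays. Myh8 stood at 0.69 and 0.36 in E17.5 valve, against -0.49 and -0.78 in E12.5 cushion. The myogenic factor genes Myod1 and Myf5 differed between the stages by -0.20 and -0.05 (adjusted p = 0.103 and 0.769).

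Markers of heart muscle cells outside the sarcomere were mostly higher in E17.5 valve than in E12.5 cushion. Of 30 measured, 12 were called higher at E17.5 (40%, against 4.67% of all genes) and 0 lower, at a median difference of 0.91. The largest were Ckmt2 (3.86) and Ckm (2.86), creatine kinases of striated muscle, Trdn (2.88), triadin of the calcium release unit, and Cox8b (2.85), a respiratory chain subunit. With replicate 2 alone of both stages 10 of the 12 were still 2-fold apart. Without the fold threshold 21 passed as higher (against 19.3% of all genes) and 5 as lower (against 34.2% of all genes). The 5 were cardiac transcription factor genes, namely Gata4 (-0.87), Hand2 (-0.58), Nkx2-5 (-0.55), Hand1 (-0.50) and Irx4 (-0.47). Of other transcription regulator genes on the list, Mef2c was called higher (1.06, but 0.91 and under 2-fold between the replicate 2 arrays alone). Nr2f2 (0.52) and Myocd (0.33) passed as higher, and Hey2 (0.27), Tbx5 (0.15) and Smyd1 (-0.17) did not pass. The median log2 ratio of the 30 was 0.34 on both E17.5 arrays, against -0.54 and -0.40 on the E12.5 arrays and -2.82 and -2.81 on the MC3T3 arrays. The median of the 33 sarcomere genes was 0.22 and 0.20 on the E17.5 arrays, against -0.30 and -0.20 on the E12.5 arrays and -5.12 and -5.02 on the MC3T3 arrays. Nppa, atrial natriuretic peptide, and Pln, phospholamban, were at the floor on both MC3T3 arrays. Against MC3T3 23 of the 30 were called higher in E17.5 valve and 21 in E12.5 cushion, with 0 lower in each. These are 76.7% and 70%, against 9.78% and 10.2% of all genes called higher. The part of heart muscle cells in the sarcomere values was not tested.

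**Figure D4:**
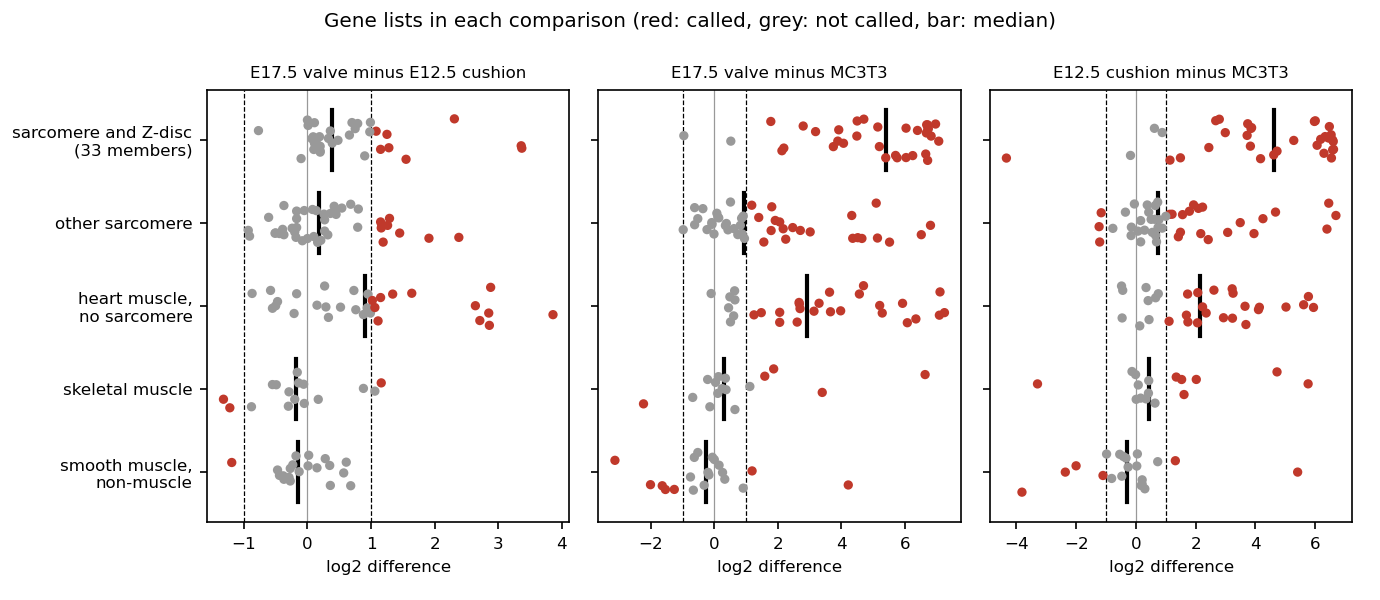
Log2 differences of single genes in the 33 sarcomere and Z-disc genes and 4 other lists, in the 3 comparisons, with red for called genes, a bar for the list median and dashed lines at 2-fold. The sarcomere and Z-disc genes have medians of 0.39, 5.40 and 4.61, and the markers of heart muscle outside the sarcomere 0.91, 2.92 and 2.15.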

How the data were processed

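Total RNA of 6 samples (2 arrays per group) was hybridised to Affymetrix mouse arrays. The labels' protocols name 2 amplification routes without assigning samples to them. The deposited values are linear ratios. Per the deposited experiment description the authors used GeneSpring GX 7.3 with RMA (quantile normalization) and then divided each gene by its median. All 45101 probe sets have a median ratio of 1 over the 4 valve arrays (tolerance 1e-05) and a minimum of 0.01. How the MC3T3 arrays were scaled to the valve arrays is not stated.

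From these, log2 ratios were averaged over the probe sets of a gene, leaving out 64 control probe sets, 932 with several gene names and 9160 with none. Genes were named from the platform annotation, and 18145 of 18193 symbols matched the RefSeq table. Linear models were fitted to all 6 arrays with limma 3.58.1 in R 4.3.3, with eBayes run without a trend on 3 residual degrees of freedom and 4.57 prior ones. P-values were adjusted by Benjamini-Hochberg over all genes. The script was tested on simulated data. Pairs of genes were compared with exact permutation tests.

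Members and lists were chosen with earlier results of these data known. All measured members are described, and of other lists at most 4 called genes per comparison and direction, largest first, with Mef2c named besides. Array values are given for members called between the stages or lower in a valve stage than in MC3T3 and for up to 4 floor genes. Those of Mylk3, Tnni1, Tnni3, Tnnt1 and Myh8, and the values of the uncalled Myod1 and Myf5, were chosen after they were seen. So were those of the transcription regulators among the heart muscle markers. The number of arrays limits the precision. Alternatives covered scaling, thresholds, the spread estimate, a replicate block, arrays left out, probe sets and low ratios. Dim probe sets were not filtered out, because a ratio does not show how bright a probe set was.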

Additional observations from a re-analysis of the deposited data

How the results depend on the processing

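Counts are of the 33 genes called higher or lower, and medians are of their log2 differences. With each array centred on its median the stage median was 0.51 and that of E17.5 valve minus MC3T3 5.52. Without a fold threshold 19 were higher and 1 lower between the stages and 1 lower in E17.5 valve than in MC3T3, and at 4-fold 3 were higher between the stages. With the most variable probe set the medians against MC3T3 were 6.66 (E17.5) and 5.97 (E12.5). With 0.1 added to the ratios they were 3.28 and 2.52, and without _x_at and _s_at probe sets the E12.5 median was 4.17.

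Leaving out each array in turn gave 8 to 10 higher between the stages, stage medians of 0.39 to 0.49, medians against MC3T3 of 5.37 to 5.60 (E17.5) and 4.48 to 4.72 (E12.5), and 0 to 1 lower in E17.5 valve than in MC3T3. The 1 is Cavin4 without E17.5 replicate 1. A replicate block changed no count of calls (8 higher and 0 lower, 31 and 0, 29 and 1). Deviations of same-numbered arrays correlated across genes at 0.15 (both valve stages), 0.02 and 0.06, and with 2 numbers they are not shown to pair. Chosen after seeing the data were replicate 2 alone of both stages, where the spread comes from the MC3T3 pair and the lone arrays are assumed to vary like it (6 higher between the stages, 1 lower in E17.5 valve than in MC3T3, and an E12.5 median of 4.72) and every probe set as its own item (20 of 61 higher between the stages, 51 higher and 2 lower in E17.5 valve than in MC3T3, 49 higher and 2 lower in E12.5 cushion).

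Directions reversed only in the stage comparison and for genes not past 2-fold. Tpm1 was 0.02 when centred and 0.45 by its most variable probe set. With replicate 2 alone Mybpc3 was -0.13, Myh7 -0.05 and Xirp1 -0.09. Over single arrays left out, Mybpc3 ran from -0.04 to 0.17, Myl4 from -0.06 to 0.09 and Tcap from -0.11 to 0.12, each reversed without E17.5 replicate 1 and without 1 array of E12.5 (replicate 1 for Mybpc3, replicate 2 for Myl4 and Tcap). The causes were not tested. The floor and the 2 arrays per group limit what these data resolve.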

Other observations

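Floor and stage values were set side by side. The 15 genes with some probe set at the floor in MC3T3 had a median stage difference of 0.20 (0.01 to 1.55, 3 called higher), and the other 18 had a median of 0.68 (-0.77 to 3.37, 5 called higher). This split was made after the values were seen and was not tested.

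Markers of valve mesenchyme ran mostly the other way from the sarcomere genes between the stages. Of 11 measured, 6 were called lower and 2 higher in E17.5 valve than in E12.5 cushion. That is 72.7%, against 6.51% of all genes called either way. Their median difference was -1.07, against -0.14 over all genes. Of 8 endocardial markers 2 were called higher (25%, against 4.67% of all genes) and 0 lower. Of 8 hepatocyte markers 5 were called higher (62.5%, against 4.67% of all genes) and 0 lower. Their median was 2.54 on E17.5 replicate 1 and 0.16 on replicate 2. Of 7 erythroid markers 0 were called higher and 5 lower (71.4%, against 1.84% of all genes). Between the replicate 2 arrays alone 4 of those 5 were still 2-fold apart.

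Nexn and Cavin4 had a lower value in E12.5 cushion than in MC3T3, with Cavin4 called, while in E17.5 valve against MC3T3 Nexn was called higher and Cavin4 was not called. Cmya5 differed by 2.38 between the stages and by 0.65, under 2-fold, between E12.5 cushion and MC3T3.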
